A study of Mus musculus with 8 samples.

Results

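Cells carrying a Sox9 reporter were compared with the other cells of the same wild-type mouse limb buds at E13.5. The study sorted limb bud cells of C57BL/6 mice by green fluorescent protein (GFP), which is transcribed from an IRES-EGFP cassette placed in 1 Sox9 allele, so the gate itself selects cells that transcribe Sox9. The groups used here are WT GFP-positive and WT GFP-negative cells, with genotype Sox9+/IRES-EGFP, and, for values set side by side only, GFP-positive and GFP-negative cells of Sox9+/Y440X-IRES-EGFP mice (Y440X), which carry the reporter on a mutant allele. The file headers call the WT mice Sox9+/+, although the design text gives them the reporter allele, so every library holds reporter mice. Each group has 2 libraries, 1 from pooled forelimb buds and 1 from pooled hindlimb buds, which the submitters treated as biological replicates, and both fractions of a limb came from the same sorting. The genes are all 739 distinct genes of the deposited tables, out of 739 in hand, and they were listed because the authors called them different between genotypes within a fraction. They are therefore not a sample of the limb transcriptome, and genes outside the tables were not analysed here.

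SOX9 is the transcription factor that commits mesenchymal cells to cartilage. With its partners SOX5 and SOX6 it switches on the genes of the cartilage matrix, a gel of type II, IX and XI collagen fibrils filled with the proteoglycan aggrecan. At midgestation the limb skeleton is a cartilage template in which the oldest chondrocytes begin to mature towards hypertrophy. Around it lie muscle precursors, blood vessels, nerves with their Schwann cells, connective tissue, fetal macrophages and a surface epithelium.

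The values are read counts, and CPM values are those counts scaled by the effective library sizes, which were 38603000 and 42601000 reads for WT GFP-positive and 47329000 and 44611000 reads for WT GFP-negative cells. Where a pair of values is given for a group, the first is the forelimb library and the second the hindlimb library. Log2 fold changes are GFP-positive over GFP-negative with the limb as a block, with standard errors, from edgeR's quasi-likelihood test, and adjusted p-values are Benjamini-Hochberg over the 739 genes. The listed genes took 8.34% and 6.05% of the reads of the GFP-positive libraries, against 1.39% and 1.26% of the GFP-negative libraries. Each gene leaves 1 residual degree of freedom and the prior degrees of freedom were infinite, so the spread is in effect shared by all 739 genes. With the limb as a block, the p-values measure how the fraction difference varied between forelimb and hindlimb. Nothing in the labels gives a second pool of the same limb.

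The marker genes separated the fractions in the direction of the sort. Sox9 itself (chromosome 11, 112782224 to 112787760, plus strand, GRCm38) stood at 1069.7 and 924 CPM in GFP-positive cells and at 96.2 and 71.9 CPM in GFP-negative cells. Since the gate selects on Sox9, this difference checks the labels and is no finding. GFP-negative cells held 8.43% of the Sox9 level of GFP-positive cells, so the negative fraction was low in Sox9 and not without it. Col2a1 (chromosome 15, 97975602 to 98004695, minus strand), the main collagen of cartilage, was at 23714 and 15986 CPM in GFP-positive cells, against 248 and 219 CPM in GFP-negative cells. Acan (chromosome 7, 79053483 to 79115099, plus strand), which encodes aggrecan, was at 3122 and 2021 CPM in GFP-positive cells, against 18.4 and 6.66 CPM in GFP-negative cells. In both genes every GFP-positive library lay far above both GFP-negative libraries, and forelimb lay above hindlimb. The markers of other cell types went the other way. Pecam1, an adhesion protein of blood vessel lining, was at 3.57 and 2.56 CPM in GFP-positive cells, against 60.0 and 60.3 CPM in GFP-negative cells. Mrc1, the mannose receptor of macrophages, was at 1.53 and 1.22 CPM in GFP-positive cells, against 153 and 141 CPM in GFP-negative cells. Mylpf, a light chain of fast skeletal myosin, was at 4.53 and 3.43 CPM in GFP-positive cells, against 36.6 and 37.9 CPM in GFP-negative cells. The groups did not overlap in any of these genes, and the log2 fold changes were -4.31 ± 0.22 for Pecam1, -6.74 ± 0.23 for Mrc1 and -3.24 ± 0.22 for Mylpf. With 2 libraries a group, lack of overlap here and below only describes the gene named. Its share over all 739 genes is not given. None of these markers was at 0 in either fraction. These are bulk libraries, so fewer cells of a type and less RNA per cell cannot be told apart.

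**Figure D1:**
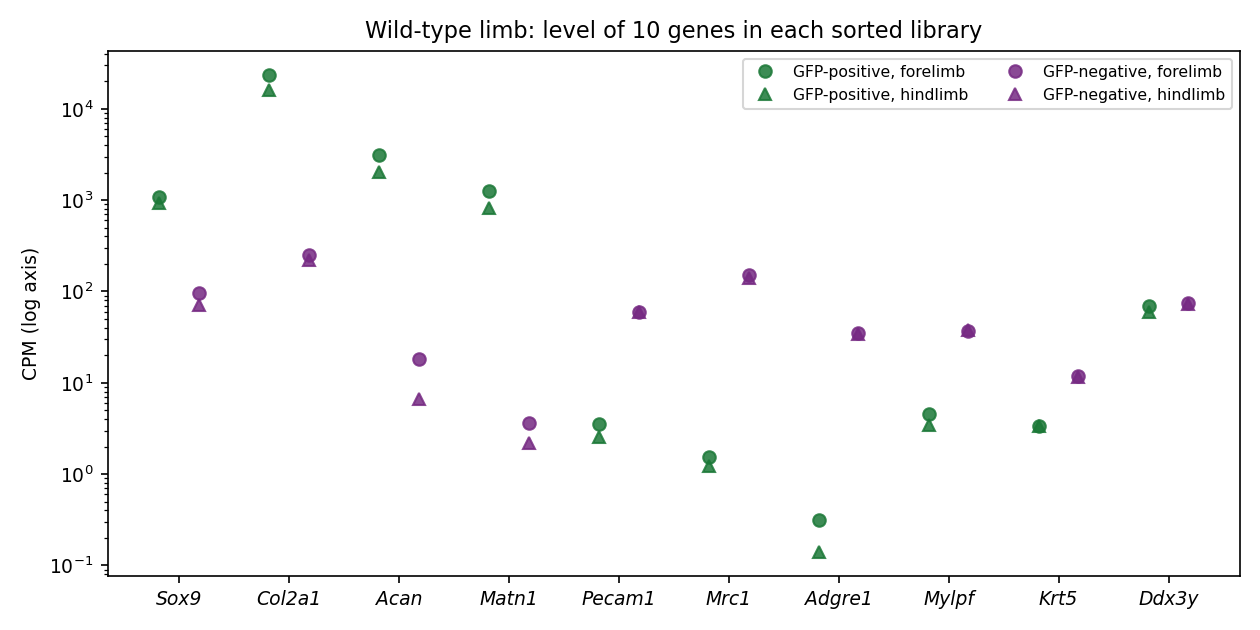
Level in CPM (log axis) of 10 genes in each of the 4 WT libraries, with GFP-positive libraries left of GFP-negative ones, circles for forelimb and triangles for hindlimb. Sox9, Col2a1, Acan and Matn1 sit higher in both GFP-positive libraries, Pecam1, Mrc1, Adgre1, Mylpf and Krt5 sit lower, and Ddx3y, a Y-linked gene, lies at 68.5 and 60.0 CPM in GFP-positive and 75.1 and 73.1 CPM in GFP-negative cells.

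Most of the listed genes belonged to 1 fraction more than to the other. At an adjusted p under 0.05, 230 of the 739 genes were higher in GFP-positive cells (31.1%), 369 were lower (49.9%) and 140 passed in neither direction, with a median log2 fold change of -0.81 over all genes. Holding the genes without a read in GFP-positive cells at the bound that 3 counts allow gave a median of -0.75. Among the genes called, 198 were at least 2-fold higher and 342 at least 2-fold lower. Differences of at least 8-fold were seen in 77 higher and 183 lower genes, and of at least 64-fold in 20 higher and 47 lower genes. Of the 140 genes without a call, 132 had mean levels within 2-fold, and 81 had at least 1 CPM in both fractions. In 11 genes no read was counted in either GFP-positive library, whereas 0 genes lacked reads in both GFP-negative libraries. The lists of genes by function used below are described by their counts and medians beside these shares over all genes.

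Cartilage matrix genes were among those with the largest contrast on the GFP-positive side. Of 30 genes on the list 20 were in the tables, and all 20 were higher in GFP-positive cells, with log2 fold changes between 2.91 and 8.51 and a median of 6.34. Together they took 5.98% and 4.07% of all reads in GFP-positive cells, against 0.101% and 0.0906% in GFP-negative cells, and Col2a1 alone took 2.37% and 1.6% against 0.0248% and 0.0219%. The count was 20 again in each of the 4 fits that omit a library. The list holds a few genes that build no matrix themselves, among them Papss2, which makes the sulfate donor for proteoglycans, Cytl1, a secreted cytokine-like protein, and Ncmap, a membrane protein described in myelin.

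Matn1 showed the largest fold change of the genes higher in GFP-positive cells. This gene (chromosome 4, 130944385 to 130955475, plus strand) encodes matrilin 1, an adaptor between collagen fibrils and proteoglycans. Its counts were 48843 and 35382 in GFP-positive cells, against 170 and 97 in GFP-negative cells, or 1265 and 831 CPM against 3.59 and 2.17 CPM. The groups did not overlap, and the GFP-negative level was 0.275% of the GFP-positive level. The log2 fold change was 8.51 ± 0.22 (edgeR adjusted p = 2.8e-124, from a spread shared by all 739 genes). Next in size came 3110079O15Rik, at 61.5 and 36.7 CPM in GFP-positive cells and 0.254 and 0.134 CPM in GFP-negative cells (7.96 ± 0.39), and then Acan with 7.81 ± 0.22.

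Other adaptors and stabilisers of the matrix behaved alike. Comp, a pentameric protein that binds collagen, was at 466 and 291 CPM in GFP-positive cells, against 3.08 and 1.59 CPM in GFP-negative cells. Matn3, another matrilin, was at 415 and 267 CPM against 2.28 and 1.93 CPM. Hapln1, the link protein that fixes aggrecan to hyaluronan, was at 2242 and 1551 CPM against 18.8 and 14.9 CPM. In each of these genes both GFP-positive libraries lay above both GFP-negative libraries, and the log2 fold changes were 7.37 ± 0.22, 7.31 ± 0.22 and 6.80 ± 0.22. Chad, a leucine-rich matrix protein that chondrocytes attach to, was at 78.6 and 56.5 CPM in GFP-positive cells and at 0.782 and 0.359 CPM in GFP-negative cells.

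Among the fibrillar and fibril-associated collagens the contrast varied with the gene. Col11a2, a chain of the type XI collagen that nucleates cartilage fibrils, was at 4049.8 and 2574 CPM in GFP-positive cells, against 27.7 and 16.8 CPM in GFP-negative cells (log2 fold change 7.23 ± 0.22). Its partner chain Col11a1 was higher still in GFP-positive cells, at 7328 and 4707 CPM, but also stood at 275 and 274 CPM in GFP-negative cells, with a log2 fold change of 4.42 ± 0.23. GFP-negative cells thus held 0.672% of the GFP-positive level of Col11a2 and 4.56% of that of Col11a1. The type IX chains, which coat the fibril surface, gave 6.65 ± 0.22 for Col9a3, 5.93 ± 0.23 for Col9a1 and 5.20 ± 0.22 for Col9a2. Col27a1, a fibrillar collagen of young cartilage, had the smallest change of the list, at 1080.4 and 805 CPM in GFP-positive cells and 129.8 and 119 CPM in GFP-negative cells. Per length, Col2a1 averaged 3867 RPKM (CPM per kilobase of transcript) in GFP-positive cells and 45.5 RPKM in GFP-negative cells. Col9a3 averaged 1070.0 RPKM in GFP-positive cells and 10.6 RPKM in GFP-negative cells.

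Enzymes and carriers that build glycosaminoglycan chains or modify collagen were higher in GFP-positive cells as well. This list was assembled after the values had been seen, so its count is a description: 16 of 16 genes were called higher, with a median log2 fold change of 2.78. Chst11, which adds sulfate to chondroitin, was at 618 and 456 CPM in GFP-positive cells, against 38.8 and 33.1 CPM in GFP-negative cells. Slc26a2, the sulfate transporter whose human gene is mutated in chondrodysplasias, was at 116 and 71.0 CPM against 13.4 and 13.2 CPM. Xylt1, which starts the chains on the core protein, was at 78.1 and 44.0 CPM in GFP-positive cells and at 9.63 and 8.50 CPM in GFP-negative cells. Both fractions held reads of all these enzymes, and the libraries did not overlap. Plod2, which hydroxylates collagen lysines, had a log2 fold change of 2.12 ± 0.20 and Itga10, the collagen-binding integrin of chondrocytes, 3.24 ± 0.20.

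The regulators of chondrogenesis were the next group. Of 27 listed regulators 10 were in the tables and all 10 were higher in GFP-positive cells, with a median log2 fold change of 4.01. Sox9 is among them, and its difference comes from the gate. Sox5 was at 480.2 and 386 CPM in GFP-positive cells, against 20.0 and 17.6 CPM in GFP-negative cells, and Sox6 at 497 and 461 CPM against 21.3 and 16.4 CPM. The partners of SOX9 thus had log2 fold changes of 4.52 ± 0.20 and 4.68 ± 0.20, above the 3.58 ± 0.20 of Sox9, a difference between genes that was not tested. Sox8, a close relative of Sox9, changed less, at 74.8 and 68.6 CPM in GFP-positive cells and 8.37 and 10.6 CPM in GFP-negative cells.

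Forkhead factors of the chondrocyte lineage followed the same direction. Foxa3, a forkhead factor of maturing chondrocytes, was at 16.7 and 12.3 CPM in GFP-positive cells, against 0.106 and 0.0672 CPM in GFP-negative cells, which rest on 5 and 3 counts. Foxc1 was at 241 and 198 CPM in GFP-positive cells, against 20.9 and 11.7 CPM in GFP-negative cells, and Foxc2 had a log2 fold change of 3.45 ± 0.22. Fgfr3, the receptor that restrains chondrocyte proliferation, was at 837 and 719 CPM in GFP-positive cells, against 44.5 and 38.9 CPM in GFP-negative cells. Mef2c, which acts in chondrocyte hypertrophy and also in muscle and vessels, had the smallest contrast of the list, at 231 and 187 CPM in GFP-positive cells and 101 and 86.0 CPM in GFP-negative cells (log2 fold change 1.16 ± 0.19).

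Genes of maturing chondrocytes and bone were divided. Of 25 listed genes 8 were in the tables, of which 5 were higher in GFP-positive cells, 1 was lower and 2 passed in neither direction. Ihh, the hedgehog ligand of prehypertrophic chondrocytes, was at 121 and 99.2 CPM in GFP-positive cells, against 1.18 and 0.762 CPM in GFP-negative cells (log2 fold change 6.83 ± 0.24). Panx3, a channel protein of prehypertrophic chondrocytes, was at 70.1 and 77.3 CPM in GFP-positive cells and at 0.782 and 0.336 CPM in GFP-negative cells. Dlx3, Enpp1 and Phospho1, a homeobox factor and 2 phosphate enzymes of mineralising tissue, had log2 fold changes of 2.09 ± 0.21, 2.35 ± 0.20 and 2.49 ± 0.43. The remaining 3 genes of the list were not higher. Alpl, the alkaline phosphatase of bone, was at 7.15 and 11.9 CPM in GFP-positive cells and 13.9 and 9.39 CPM in GFP-negative cells. Spp1, which encodes osteopontin, was at 6.50 and 4.6 CPM against 8.94 and 5.58 CPM. In both genes the fractions overlapped, with log2 fold changes of -0.30 ± 0.23 for Alpl and -0.37 ± 0.25 for Spp1. Mmp13, a collagenase of late hypertrophic cartilage, was counted 2 and 0 times in GFP-positive cells, against 44 and 28 times in GFP-negative cells.

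Joint, BMP and hedgehog genes among the tables were few. Gdf5, a BMP-family ligand that marks the joint interzone, was at 138 and 134 CPM in GFP-positive cells, against 25.8 and 21.2 CPM in GFP-negative cells. Prg4, the lubricant of joint surfaces, was at 5.75 and 7.54 CPM against 1.84 and 2.08 CPM. Trpv4, a calcium channel of chondrocytes placed on the same list, was at 147 and 102 CPM against 3.4 and 2.06 CPM. All 3 genes in hand of the 20 on that list were called higher in GFP-positive cells. Of the BMP pathway, the antagonist Nog (log2 fold change 2.86 ± 0.19) and the receptor Bmpr1b (2.58 ± 0.19) were higher, whereas the receptor Bmpr2 was at 299.9 and 289 CPM in GFP-positive cells and 255 and 255 CPM in GFP-negative cells (0.21 ± 0.20, edgeR adjusted p = 0.328). Under scaling by the median of ratios Bmpr2 was called higher (DESeq2, log2 fold change 0.79). Dhh, the hedgehog ligand of Schwann cells, passed in neither direction, with 33 and 35 counts in GFP-positive cells and 36 and 21 counts in GFP-negative cells.

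The promoters of a gene from the GFP-positive side and of a chondrocyte ligand are shown to set the letters bound by SOX proteins beside these values. The sequences are the 250 bases upstream of the RefSeq gene start on GRCm38.p6, 5′ to 3′ in the direction of the gene, and capitals mark the SOX core ACAAT on either strand.
Matn1 (chr4:130944135-130944384, plus strand): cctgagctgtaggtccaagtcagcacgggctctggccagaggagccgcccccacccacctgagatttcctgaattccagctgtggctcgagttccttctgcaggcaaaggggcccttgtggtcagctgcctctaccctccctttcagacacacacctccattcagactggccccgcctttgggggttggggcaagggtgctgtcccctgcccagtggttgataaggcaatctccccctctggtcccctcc
Ihh (chr1:74951673-74951922, minus strand): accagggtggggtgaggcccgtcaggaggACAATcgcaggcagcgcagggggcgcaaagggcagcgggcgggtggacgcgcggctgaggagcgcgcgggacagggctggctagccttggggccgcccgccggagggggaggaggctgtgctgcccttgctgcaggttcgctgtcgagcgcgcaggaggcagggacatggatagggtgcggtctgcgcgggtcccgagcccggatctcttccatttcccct
The Ihh window held 1 match and the Matn1 window 0. Only the first window of a gene was used, and the promoters of 1 chromosome were left out. A window was counted for 509 of the 739 genes. ACAAT, on either strand, was present in 23 of 151 promoters of genes higher in GFP-positive cells (15.2%). For genes lower there the count was 61 of 263 (23.2%), and the share of the 27025 promoters counted was 28.3%. Of the cartilage matrix genes 3 of 16 held it. These shares describe the letters of short windows, and enhancers lie outside them.

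The host of a cartilage microRNA was also on the GFP-positive side. Mir140 (chromosome 8, 107551244 to 107551313, plus strand) gives a microRNA that is abundant in chondrocytes. Its gene was counted 160 and 158 times in GFP-positive cells, against 1 and 2 times in GFP-negative cells, with no overlap (log2 fold change 6.79 ± 0.96). Reads over a hairpin gene in libraries selected for poly(A) come from its precursor or host transcript, not from the mature microRNA. Of 7 microRNA genes in the tables, grouped after the values had been seen, 3 were called higher and 0 lower in GFP-positive cells. Mir27a was counted 38 and 52 times in GFP-positive cells and 18 and 14 times in GFP-negative cells. Its neighbour Mir23a was counted 34 and 44 times in GFP-positive cells and 34 and 16 times in GFP-negative cells, and its call was lost without GFP-positive forelimb, GFP-positive hindlimb or GFP-negative hindlimb, with log2 fold changes down to 0.41 against 0.85. The mature 3p sequences of the genes called are given from RefSeq, on GRCm38.p6, with the seed, bases 2 to 8, in capitals. The seeds printed differ from each other. Mature 5p sequences of Mir27a and Mir23a are not printed.
mmu-miR-140-3p (chr8:107551288-107551308, plus strand): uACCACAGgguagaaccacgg
mmu-miR-27a-3p (chr8:84208727-84208747, plus strand): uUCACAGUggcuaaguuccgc
mmu-miR-23a-3p (chr8:84208563-84208583, plus strand): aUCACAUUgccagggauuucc

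**Figure D2:**
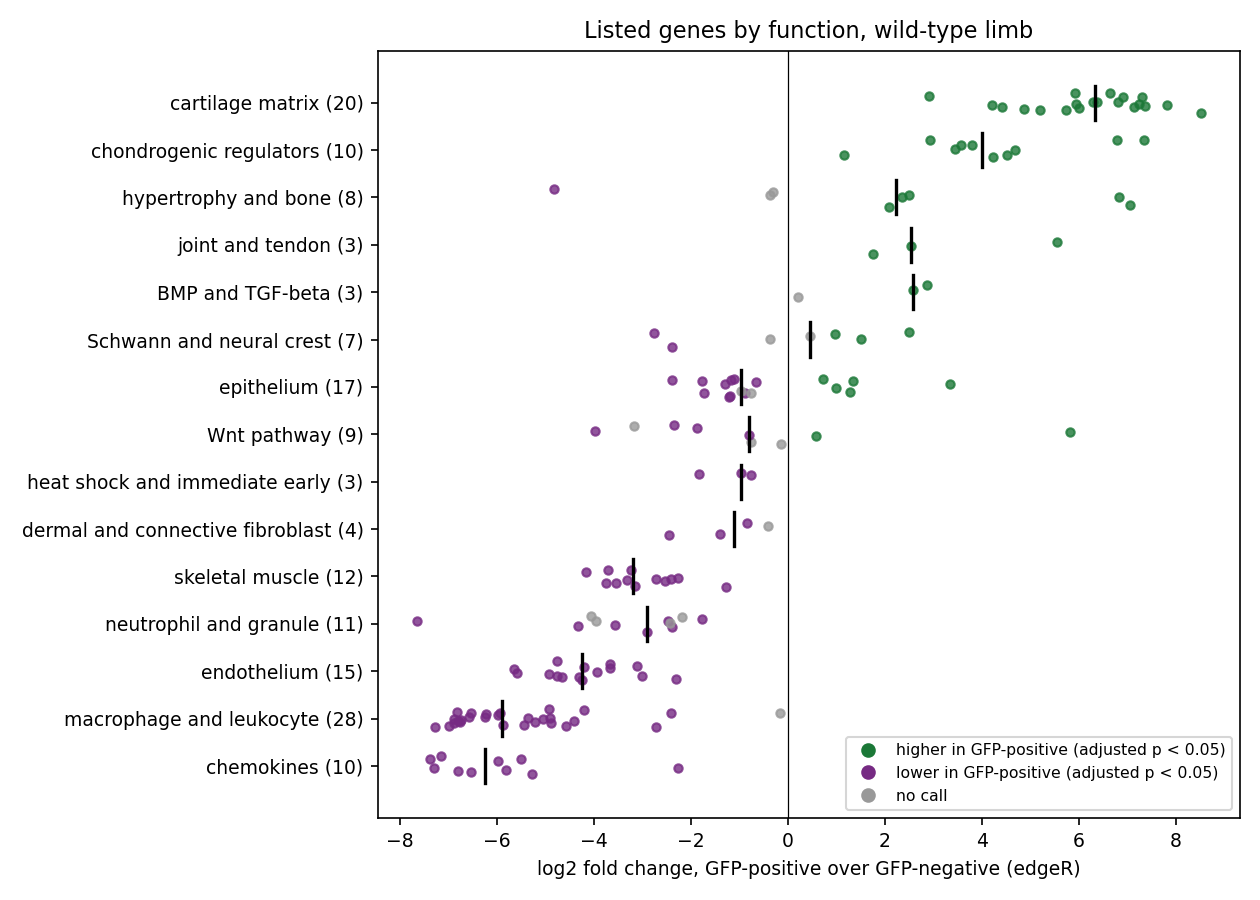
Log2 fold change of GFP-positive over GFP-negative cells (horizontal axis) for the listed genes of 15 functional lists, each gene a point, with the number of genes in brackets and a black bar at the list median. Cartilage matrix (median 6.34) and chondrogenic regulators (4.01) lie to the right of 0, and skeletal muscle (-3.19), endothelium (-4.24), macrophage (-5.90) and chemokine genes (-6.25) lie to the left.

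Macrophage and leukocyte genes belonged to the GFP-negative side. Of 40 listed genes 28 were in the tables, and 27 were lower in GFP-positive cells while 0 were higher, the median being -5.90 on the log2 scale. The genes of the list summed to 66.3 and 64 CPM in GFP-positive cells, against 969.8 and 830.3 CPM in GFP-negative cells. Adgre1, the F4/80 antigen of macrophages, was at 0.311 and 0.141 CPM in GFP-positive cells, which rest on 12 and 6 counts, against 35.1 and 33.9 CPM in GFP-negative cells. Csf1r, the receptor for the macrophage growth factor, was at 0.648 and 0.634 CPM against 80.2 and 65.3 CPM. Spi1, which encodes the myeloid transcription factor PU.1, was at 0.130 and 0.164 CPM against 9.97 and 8.47 CPM. The GFP-positive libraries lay below both GFP-negative libraries in all 3 genes, with log2 fold changes of -7.27 ± 0.39, -6.81 ± 0.27 and -5.93 ± 0.50.

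The complement and scavenger genes of resident macrophages followed. C1qa and C1qb, chains of the first complement component, had log2 fold changes of -6.76 ± 0.37 and -6.58 ± 0.30, and Stab1, a scavenger receptor, -5.36 ± 0.21. Mrc1 was at 0.937% of its GFP-negative level in GFP-positive cells. A few genes of the list were less restricted. Lcp1, an actin bundler of blood cells, was at 11.7 and 9.01 CPM in GFP-positive cells and 73.5 and 62.3 CPM in GFP-negative cells, and Laptm5, a lysosomal protein of blood cells, was at 5.93 and 7 CPM against 37.0 and 31.3 CPM. Cd83, an activation marker of immune cells, passed in neither direction, at 33.2 and 33.6 CPM in GFP-positive cells and 44.1 and 31.7 CPM in GFP-negative cells.

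Some receptors of immune cells had no read in the reporter cells. In a group of C-type lectin and Ms4a receptors chosen after the values had been seen, 9 of 9 genes were lower in GFP-positive cells. Clec4a3, a C-type lectin, had 0 counts in both GFP-positive libraries, against 83 and 77 in GFP-negative cells, which makes it at least 47.1-fold lower, taking 3 counts over the group as the floor. Counts of this gene could be split with close relatives of its family. Tlr8, a sensor of single-stranded RNA, had 0 counts in both GFP-positive libraries, against 48 and 45, and was at least 27.4-fold lower by the same floor. Neither gene was called by DESeq2 with sizes from the median of ratios. Of 7 Toll-like receptors, also grouped after the values had been seen, 6 were lower in GFP-positive cells. The exception was Tlr3, which senses double-stranded RNA and is found outside the blood lineage. It was counted 69 and 70 times in GFP-positive cells and 97 and 115 times in GFP-negative cells, without a call. Ms4a6c, a membrane protein of myeloid cells, was counted 0 and 3 times in GFP-positive cells, against 539 and 544 times in GFP-negative cells.

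Genes of the chemokine list fell together, with 10 of 10 genes in hand, of 23 listed, lower in GFP-positive cells. The chemokine receptor Cxcr5, which is not on this list, had log2 ratios of -0.6 in forelimb and 0.19 in hindlimb. Ccl3 and Ccl4, which attract leukocytes, were counted 7 and 4 times and 5 and 1 times in GFP-positive cells, against 995 and 812 times and 629 and 479 times in GFP-negative cells. Cxcl2, a neutrophil attractant, differed between limbs within GFP-negative cells, 62.9 CPM standing in forelimb against 30.6 CPM in hindlimb, and was at 0.984 and 0.493 CPM in GFP-positive cells. Cxcl12 stood apart from the rest of its list. This ligand of connective tissue and vessels was at 51.3 and 61.9 CPM in GFP-positive cells, against 282 and 257 CPM in GFP-negative cells, so the GFP-positive level was 21% of the GFP-negative level (log2 fold change -2.26 ± 0.19).

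Promoters of 3 genes with a match are printed because the letters GAGGAA, the core bound by PU.1, were common in the macrophage list. Fcrls is not on that list and is not part of its share. The windows are again the 250 bases upstream of the RefSeq gene start on GRCm38.p6 in the direction of the gene. Capitals mark GAGGAA or, where the match is on the other strand, its complement TTCCTC.
Mrc1 (chr2:14229164-14229413, plus strand): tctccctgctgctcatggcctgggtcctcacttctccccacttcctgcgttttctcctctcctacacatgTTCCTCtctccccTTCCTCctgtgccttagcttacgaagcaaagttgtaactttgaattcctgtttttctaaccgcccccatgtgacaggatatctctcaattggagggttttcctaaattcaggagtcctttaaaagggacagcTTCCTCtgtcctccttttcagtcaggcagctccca
Cd53 (chr3:106790150-106790399, minus strand): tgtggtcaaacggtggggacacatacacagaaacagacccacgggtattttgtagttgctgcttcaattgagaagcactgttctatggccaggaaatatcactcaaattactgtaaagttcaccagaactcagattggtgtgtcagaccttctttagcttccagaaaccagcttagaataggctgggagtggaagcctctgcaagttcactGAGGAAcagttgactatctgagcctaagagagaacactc
Fcrls (chr3:87263525-87263774, minus strand): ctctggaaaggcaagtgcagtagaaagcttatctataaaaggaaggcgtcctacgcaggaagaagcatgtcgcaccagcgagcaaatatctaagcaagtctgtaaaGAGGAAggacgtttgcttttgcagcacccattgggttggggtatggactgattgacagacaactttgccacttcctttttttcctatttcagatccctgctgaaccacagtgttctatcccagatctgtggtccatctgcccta
Mrc1 held 3 matches, and Cd53, a tetraspanin of leukocytes, and Fcrls, an Fc receptor-like gene of macrophages and microglia, held 1 each. Both strands were searched for each motif, and no motif contains another. GAGGAA was found in 14 of 20 promoters of the macrophage list (70%) and in 5 of 8 of the endothelial list (62.5%). The share was 22.2% for skeletal muscle and 18.8% for cartilage matrix genes. Among genes lower in GFP-positive cells 95 of 263 promoters held GAGGAA (36.1%), and among genes higher there 29 of 151 (19.2%). Of the 27025 promoters counted, 23.1% held it. TATAAA was found in 15.6% of promoters of lower genes, in 10.6% of those of higher genes and in 13% of the promoters counted. A match is a run of letters and not a site shown to be bound.

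Endothelial genes were uniformly lower in reporter cells. All 15 genes in hand, of 37 listed, were lower in GFP-positive cells, with log2 fold changes between -5.64 and -2.30 and a median of -4.24, and the 15 genes summed to 17.5 and 16.6 CPM in GFP-positive cells, against 314 and 299 CPM in GFP-negative cells. Cdh5, the cadherin of vessel junctions, was at 2.77 and 3.43 CPM in GFP-positive cells, against 86.7 and 82.6 CPM in GFP-negative cells. Emcn, a surface sialomucin of veins and capillaries, was at 0.622 and 0.962 CPM against 21.1 and 21.7 CPM. Robo4, a guidance receptor of vessels, was at 0.414 and 0.516 CPM in GFP-positive cells and at 15.5 and 13.3 CPM in GFP-negative cells. The Sox factors of endothelium also lay on the GFP-negative side, in contrast to Sox5, Sox6 and Sox8. Sox17 had a log2 fold change of -4.21 ± 0.45, Sox7 of -3.11 ± 0.30 and Sox18 of -2.30 ± 0.32, the weakest of the list.

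Muscle genes were lower in reporter cells to a smaller extent. All 12 genes in hand of 44 listed were lower and centred on a log2 fold change of -3.19, and they summed to 15.6 and 12.4 CPM in GFP-positive cells, against 131 and 133 CPM in GFP-negative cells. Actn2, which anchors actin at the Z-line, was at 2.31 and 1.20 CPM in GFP-positive cells, against 23.1 and 21.2 CPM in GFP-negative cells. Acta1, skeletal actin, was at 2.38 and 1.88 CPM against 19.4 and 18.3 CPM. Casq2, the calcium store protein, had the deepest contrast of the list at -4.17 ± 0.33. Smpx, a small muscle protein, had the shallowest, with 34 and 38 counts in GFP-positive cells and 103 and 96 counts in GFP-negative cells (-1.28 ± 0.35). Scaling by the median of ratios over the listed genes gave 9 lower calls among the 12 muscle genes, with a median of -2.61, and ended the call of Smpx (-0.70). The median over the muscle genes was nearer to 0 than over endothelial or macrophage genes, a difference between lists that was not tested.

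Connective tissue and patterning genes were present in both fractions. Ebf1, Ebf2 and Ebf3 are early B-cell factors that also act in limb connective tissue. Ebf3 was at 202 and 221 CPM in GFP-positive cells, against 421 and 345 CPM in GFP-negative cells, and Ebf2 at 48.7 and 56.7 CPM against 158 and 119.8 CPM. Ebf1 was at 139 and 168 CPM in GFP-positive cells and 227 and 179 CPM in GFP-negative cells, which just missed the threshold (log2 fold change -0.40 ± 0.19, edgeR adjusted p = 0.0513), and at scaling by the median of ratios over the listed genes its fold change was 0.19. The retinoic acid genes in hand went different ways. Cyp26b1, which degrades retinoic acid, was at 446 and 385 CPM in GFP-positive cells, against 112 and 104 CPM in GFP-negative cells, and Crabp1, which binds retinoic acid in the cytoplasm, was at 36.2 and 55.6 CPM against 235 and 257 CPM. Meis1 and Meox1, homeobox genes of proximal limb and of somite-derived cells, were lower in GFP-positive cells, at -1.17 ± 0.23 and -1.79 ± 0.23. Scaling by the median of ratios ended the calls of Ebf3 (-0.27) and Meis1 (-0.59).

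Wnt pathway genes were divided. Of 42 listed genes 9 were in the tables, of which 2 were higher and 4 lower in GFP-positive cells. The receptor Fzd9 was at 182 and 104 CPM in GFP-positive cells, against 2.77 and 2.20 CPM in GFP-negative cells (log2 fold change 5.81 ± 0.21), and the receptor Fzd4 at 116 and 119.5 CPM against 83.3 and 73.2 CPM (0.59 ± 0.19). The secreted activator Rspo1 was at 0.363 and 0.587 CPM in GFP-positive cells, against 7.61 and 7.46 CPM in GFP-negative cells. Wnt6, an ectodermal ligand, was at 0.311 and 0.282 CPM against 1.06 and 2.06 CPM. Wnt3 and Wnt7b, also ectodermal ligands, were lower with fewer reads, at -1.88 ± 0.59 and -0.81 ± 0.37. Calls for Wnt3 and Wnt7b were lost without GFP-positive forelimb, GFP-positive hindlimb or GFP-negative hindlimb, with log2 fold changes up to -1.42 and -0.15, and that for Fzd4 was lost without GFP-negative hindlimb, at 0.50. DESeq2, with either set of library sizes, called 2 lower genes on this list. Lef1, a nuclear effector of the pathway, was at 37.1 and 54.8 CPM in GFP-positive cells and 46.4 and 53.0 CPM in GFP-negative cells, without a call.

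Epithelial genes did not belong clearly to either fraction. Of 52 listed genes 17 were in the tables, and 5 were higher, 10 lower and 2 without a call, with a median log2 fold change of -0.96. Summed over the list they came to 69.1 and 66.2 CPM in GFP-positive cells, against 61.0 and 62.0 CPM in GFP-negative cells. Of these sums Hr, a nuclear corepressor known from hair follicles, held 31.1 and 24.0 CPM in GFP-positive cells, against 3.57 and 1.97 CPM in GFP-negative cells. Krt5 and Krt14, the keratins of basal epidermis, were lower in GFP-positive cells. Krt5 was at 3.39 and 3.33 CPM in GFP-positive cells, against 11.7 and 11.5 CPM in GFP-negative cells, and Krt14 at 1.81 and 1.71 CPM against 4.94 and 6.88 CPM. Krt17, a keratin of periderm and hair follicle, was higher in GFP-positive cells, at 2.54 and 2.82 CPM against 1.06 and 1.05 CPM. The grainyhead factors of epithelium were also divided, with log2 fold changes of 0.99 ± 0.24 for Grhl1 and 1.29 ± 0.36 for Grhl2 but -1.22 ± 0.34 for Grhl3. Pkp3, a desmosome protein, was called higher at 0.72 ± 0.33, and this call was lost without GFP-positive hindlimb (0.43), GFP-negative forelimb (0.89) or GFP-negative hindlimb (0.60). Cdh1, the epithelial cadherin, was called lower at -1.20 ± 0.34, but not without GFP-positive hindlimb (-1.16) or under the median of ratios (-0.61). Scaling by the median of ratios over the listed genes gave 5 higher and 2 lower calls on this list.

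Schwann cell and neural crest genes were divided too. Sox10, a relative of Sox9 that directs Schwann cells and melanocytes, was at 20.3 and 25.4 CPM in GFP-positive cells, against 5.11 and 3.07 CPM in GFP-negative cells (log2 fold change 2.50 ± 0.23). Erbb3, the neuregulin receptor of Schwann cells, was at 33.2 and 43.1 CPM against 15 and 11.9 CPM. Cdh19, a cadherin of Schwann cell precursors, was at 4.90 and 3.90 CPM in GFP-positive cells and 2.39 and 2.08 CPM in GFP-negative cells, and its call was lost without GFP-positive forelimb (0.80) or GFP-negative hindlimb (0.88). Ednrb, the endothelin receptor of neural crest and of vessels, and Foxd3, an early neural crest factor, were lower in GFP-positive cells, at -2.76 ± 0.22 and -2.38 ± 0.35. Of the 7 genes in hand 3 were higher, 2 lower and 2 without a call.

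Neutrophil granule and stefin genes were near the detection floor, and the 2 red cell genes in hand were called lower in GFP-positive cells. The 11 neutrophil granule and stefin genes summed to 0.155 and 0.329 CPM in GFP-positive cells, against 2.20 and 2.29 CPM in GFP-negative cells. Of these, 7 were called lower in GFP-positive cells, but 3 without GFP-positive forelimb and 4 without GFP-negative forelimb, and 1 under scaling by the median of ratios over the listed genes. S100a9, a calcium-binding protein of neutrophils, had 0 counts in both GFP-positive libraries, against 23 and 29 in GFP-negative cells, and was at least 15.3-fold lower. Reads of the stefin genes could be split between near-identical copies. Alas2, the haem synthesis enzyme of red cells, was at 1.30 and 1.83 CPM in GFP-positive cells, against 10.7 and 12.6 CPM in GFP-negative cells.

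Heat shock genes were modestly lower in reporter cells. Hspa1a and Hspa1b, near-identical stress chaperones whose reads can be split between the copies, were at 23.5 and 19.1 CPM and at 32.8 and 29.7 CPM in GFP-positive cells, against 37.5 and 46.0 CPM and 50.2 and 55.0 CPM in GFP-negative cells. Hspb1, a small heat shock protein, was at 3.34 and 3 CPM in GFP-positive cells, against 13.7 and 9.21 CPM in GFP-negative cells. All 3 genes in hand were called, and 1 of the 3 was called under scaling by the median of ratios over the listed genes.

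Some genes had no call between the fractions. Ddx3y and Uty, which lie on the Y chromosome, had log2 fold changes of -0.21 ± 0.19 and -0.27 ± 0.22, with no call, in fractions sorted from the same pools of fetuses. Rn45s, the ribosomal RNA precursor, was at 245 and 189.6 CPM in GFP-positive cells and 204 and 258 CPM in GFP-negative cells. Mpnd, which encodes a deubiquitinase-like protein, was at 33.3 and 37.1 CPM in GFP-positive cells and 32.3 and 37.2 CPM in GFP-negative cells. A p that misses the threshold does not show equal levels. Scaling by the median of ratios over the listed genes moved the median of all genes by 0.61 and put Ddx3y at 0.38, Uty at 0.32 and Rn45s at 0.50, still without a call, while Mpnd, at 0.61, was called higher (DESeq2).

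Each fraction held low levels of the genes of the other. In GFP-negative cells the level of the 20 cartilage matrix genes was between 0.275% (Matn1) and 13.2% (Col27a1) of that in GFP-positive cells, with 0.487% for Acan and 1.18% for Col2a1. Outside that list the share was 8.43% for Sox9, 14.2% for Slc26a2 and 44.8% for Mef2c. In GFP-positive cells macrophage markers stood at 0.655% (Adgre1) and 0.937% (Mrc1) of their GFP-negative level, the endothelial marker Pecam1 at 5.10% and the muscle marker Mylpf at 10.7%. These shares differed from gene to gene within each fraction.

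The deposited tables mapped onto the fractions in different ways. Because the genes were listed for a genotype difference measured against the same WT libraries, these counts describe the lists and nothing is read from them about Y440X. Of the 227 genes listed as lower in Y440X GFP-positive cells, 184 were higher in WT GFP-positive than WT GFP-negative cells and 10 were lower, the median log2 fold change being 2.03. Of the 76 genes listed as higher in Y440X GFP-positive cells, 3 were higher in WT GFP-positive cells and 57 were lower, with a median of -1.78. The 425 genes listed as lower in Y440X GFP-negative cells held 55 higher and 289 lower genes (median -2.05), and the 85 genes listed as higher there held 13 higher and 40 lower genes (median -0.96, or -0.77 with genes at 0 held at their bound). The 48 genes listed as lower in both Y440X fractions were 24 higher and 8 lower.

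A set of 7 genes was listed as higher in Y440X GFP-positive and lower in Y440X GFP-negative cells. Of these 6 were lower in WT GFP-positive cells and 1, Alpl, had no call. Fcrls was counted 8 and 14 times in WT GFP-positive cells, against 2127 and 1815 times in WT GFP-negative cells. Adgrl4, an adhesion receptor of endothelium, was counted 8 and 8 times against 264 and 300 times. Gimap6, a GTPase of lymphocytes and vessels, was counted 40 and 38 times against 975 and 814 times. Mfng, a glycosyltransferase that modifies Notch, Bcl6b, a transcriptional repressor, and Rasgrp3, a Ras activator, had log2 fold changes of -5.44 ± 0.53, -3.93 ± 0.33 and -4.29 ± 0.28. The 6 genes thus had few reads in the WT GFP-positive libraries.

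**Figure D3:**
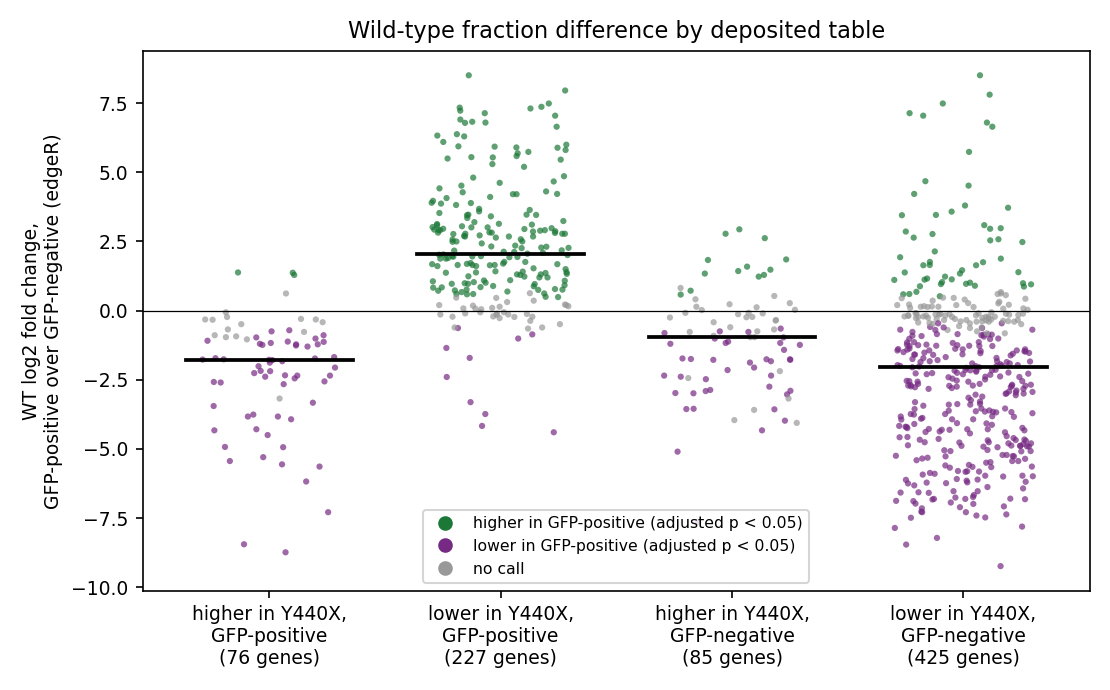
WT log2 fold change of GFP-positive over GFP-negative cells (vertical axis) of the genes of each deposited table, each gene a point, with the number of genes in brackets and a black bar at the median. Genes listed as lower in Y440X GFP-positive cells centre on 2.03 and those listed as higher there on -1.78.

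The limbs were also compared with each other. Of 322 genes with at least 50 counts in each WT library, 25 had fraction ratios of opposite sign in forelimb and hindlimb. For the 568 called genes with reads in all 4 libraries, the ratio of GFP-positive to GFP-negative cells had the same direction in forelimb and hindlimb in every case, 0 having opposite signs. The block fit itself favours such genes, so this describes how the calls were made. Among the 322 genes, the log2 ratio differed between limbs by a median of 0.31, and by more than 2-fold in 13 genes. Otogl, an inner ear matrix protein, had the largest gap, with log2 ratios of 1.72 in forelimb and 0.23 in hindlimb, and its call was lost without GFP-positive forelimb (0.54) or GFP-negative forelimb (0.67). Scin, an actin-severing protein of chondrocytes, followed, with 147 and 88.4 CPM in GFP-positive cells and 5.26 and 8.18 CPM in GFP-negative cells. Forelimb lay above hindlimb for all 20 cartilage matrix genes in GFP-positive cells and for 19 of 20 in GFP-negative cells, against 428 of all 739 genes in GFP-positive cells and 501 of 739 in GFP-negative cells. With 1 library a limb and fraction, limb and library cannot be told apart.

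**Figure D4:**
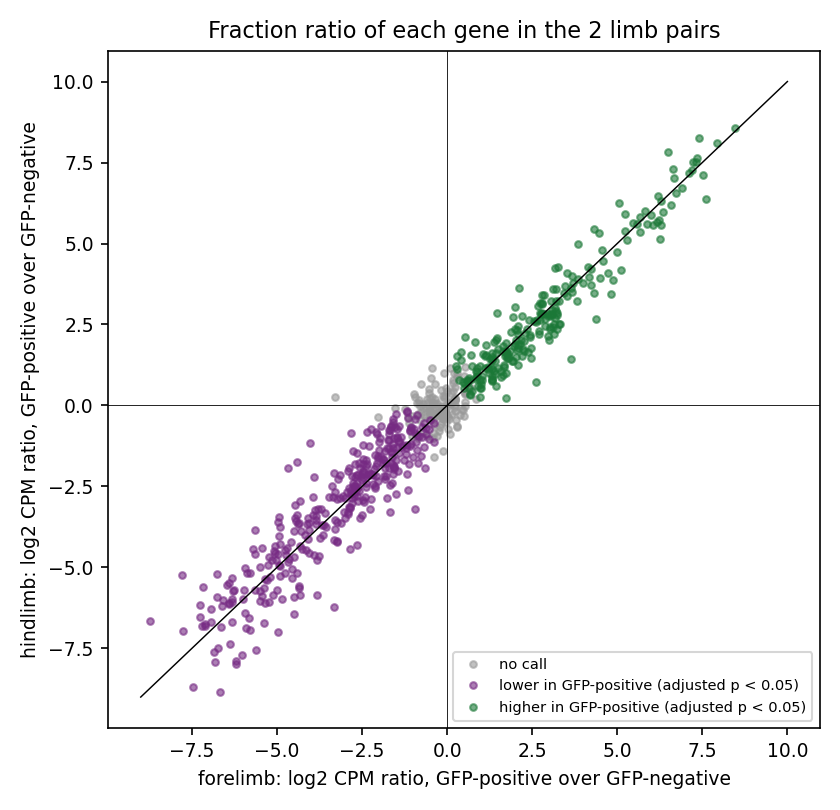
Log2 CPM ratio of GFP-positive to GFP-negative cells in forelimb (horizontal axis) and hindlimb (vertical axis), each gene a point, with the line of equal ratios. Genes with a library at 0 are not drawn, and the points follow the line from Matn1 (8.46 and 8.58) to genes such as Adgre1 (-6.82 and -7.91).

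Set beside the Y440X libraries, the fraction ratios of cartilage genes had the same direction in both genotypes, and several ratios of GFP-negative genes lay nearer to 0 in Y440X. These values are given side by side without a test, since the genes were chosen for genotype differences in the same libraries. The log2 ratio of Matn1 was 9.48 and 8.84 in Y440X limbs and 8.46 and 8.58 in WT limbs, and that of Sox9 was 4.74 and 4.68 against 3.47 and 3.69. For Col2a1 the order was the other way, with 5.74 and 5.18 in Y440X and 6.58 and 6.19 in WT. Mrc1 had log2 ratios of -4.09 and -4.63 in Y440X and -6.64 and -6.85 in WT, and Pecam1 -2.04 and -2.56 against -4.07 and -4.56. The ratio of Mylpf was -2.19 and -1.86 in Y440X and -3.01 and -3.47 in WT. The log2 ratio of Spp1 was on opposite sides of 0 in the genotypes, with 2.25 and 2.10 in Y440X, on the GFP-positive side, and -0.46 and -0.28 in WT.

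**Figure D5:**
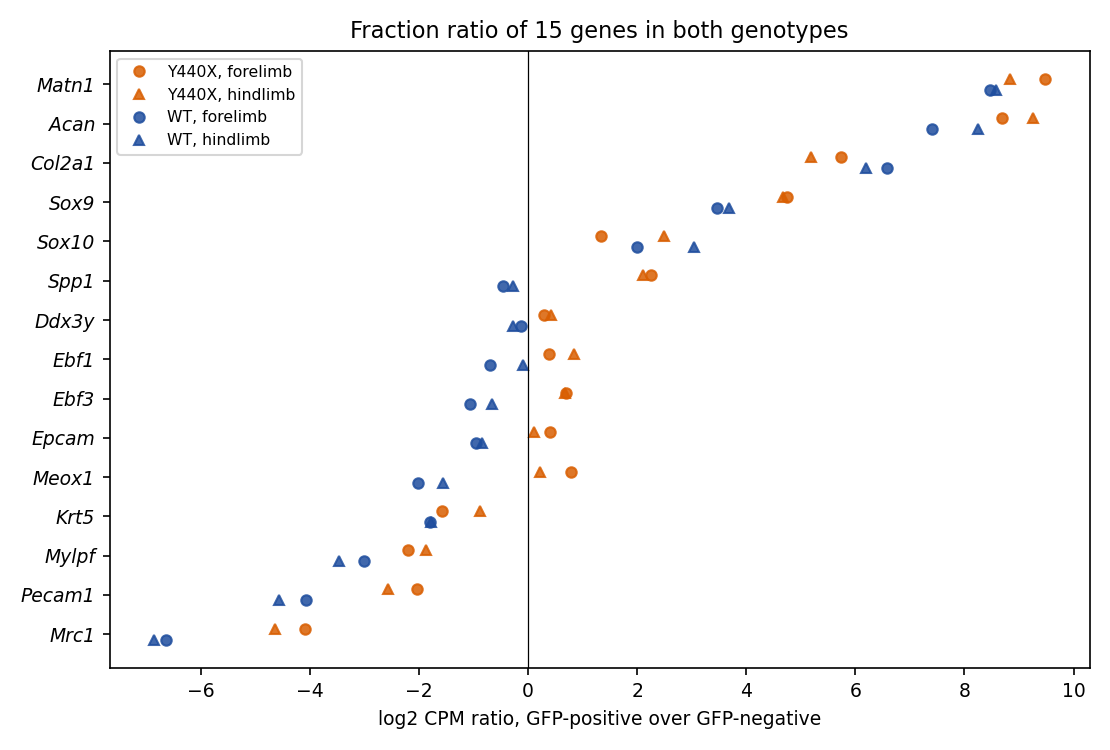
Log2 CPM ratio of GFP-positive to GFP-negative cells (horizontal axis) for 15 genes in each limb of each genotype, Y440X (orange) above WT (blue), circles for forelimb and triangles for hindlimb. Matn1, Acan, Col2a1, Sox9 and Sox10 lie right of 0 and Krt5, Mylpf, Pecam1 and Mrc1 left of 0 in both genotypes, while Spp1, Ddx3y, Ebf1, Ebf3, Epcam and Meox1 lie left of 0 in WT and right of 0 in Y440X at these library sizes. Scaling by the median of ratios put the WT values of Spp1, Ddx3y and Ebf1 above 0 (0.22, 0.38 and 0.19).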

How the data were processed

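Strand-specific poly(A) RNA-seq libraries were made from sorted limb bud cells, per the labels' protocols. The deposited tables hold raw read counts per gene: the file headers call these columns RPKM, but 100% of the values are whole numbers. The deposited tables also give gene lengths, log2 fold changes and logCPM on a log2 scale, a test-statistic score, and p-values made by the authors for genotype, which were not used as results. Tools and builds named in the submitters' processing notes are featureCounts, edgeR 3.36.0, GRCm38 and mm10, while no aligner is given in the sources used here.

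Effective library sizes (38603000 to 47329000 reads for WT) are those that best return, in the least-squares sense over 165 genes, the authors' deposited logCPM and fold changes, with a largest residual of 0.0013 in log2 fold change. Counts of the 4 WT libraries were fitted in edgeR 4.0.16 (R 4.3.3; quasi-likelihood test, limb and fraction as terms, no filter), with Benjamini-Hochberg adjustment over 739 genes and a threshold of 0.05. The block follows the labels: both fractions of a limb come from the same dissociated buds. The deviations of limbs correlated between fractions at 0.15 over 322 genes with at least 50 counts in each WT library. RPKM was computed from these CPM and the deposited lengths. Alternatives were DESeq2 1.42.0, TMM, limma 3.58.1, glmTreat, a filter, all 8 libraries, no block, and leaving out each library. The fits that leave out a library kept the Y440X libraries and compared group means without the limb block. Coordinates come from GENCODE M21 (GRCm38), matched by symbol for 715 genes, and promoter and microRNA sequences from RefSeq.

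The genes and lists were chosen with earlier results of these data known. Named genes are the marker genes, the 15 called genes furthest in each direction, up to 6 genes a list by RPKM with the members that go against their list, the 5 highest by RPKM of each table and the genes listed in opposite directions. A further 57 genes entered after their values had been seen. Floors cover counting error only, whereas the standard errors also hold the spread between libraries that the fit estimated.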

Additional observations from a re-analysis of the deposited data

Results flagged for a closer look

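In 10 genes, all among the 182 named ones, both limbs of WT and both limbs of Y440X had fraction ratios of opposite sign. Cited2 and Otogl among them were named after their values had been seen. No share over all 739 genes is given. The difference between genotypes was not tested, the genes were listed for genotype differences in the same libraries, and all values are log2 ratios of GFP-positive to GFP-negative cells, forelimb before hindlimb. Osteopontin gene Spp1 had 2.25 and 2.10 in Y440X and -0.46 and -0.28 in WT, with a WT fold change of -0.37. The somite homeobox gene Meox1 had 0.78 and 0.23 in Y440X and -2.02 and -1.56 in WT (WT fold change -1.79). Among connective tissue factors, Ebf3 had 0.69 and 0.67 in Y440X and -1.06 and -0.65 in WT (-0.85), and Ebf1 had 0.39 and 0.85 in Y440X and -0.70 and -0.09 in WT (-0.40). Cited2, a transcriptional coregulator, had 0.36 and 0.53 in Y440X and -1.65 and -0.64 in WT (-1.14).

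The epithelial adhesion gene Epcam had 0.41 and 0.11 in Y440X and -0.95 and -0.84 in WT (WT fold change -0.89). The histone gene Hist3h2ba had 0.05 and 0.29 in Y440X and -0.75 and -0.67 in WT (-0.71). Otogl went the other way, with -1.24 and -3.38 in Y440X and 1.72 and 0.23 in WT (0.97). The Y-linked genes were also among the 10. Ddx3y had 0.30 and 0.42 in Y440X and -0.13 and -0.28 in WT (-0.21), and Uty had 0.10 and 0.00 in Y440X and -0.03 and -0.51 in WT (-0.27). Of the 10 genes, Ddx3y, Uty, Ebf1 and Spp1 had no call between the WT fractions, and scaling by the median of ratios put their WT fold changes above 0 (0.38, 0.32, 0.19 and 0.22), so the opposition of sign rests on the library sizes used. The second Y440X value of Uty is a ratio just above 0 before rounding.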

How the results depend on the processing

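Both counts of calls, 230 higher and 369 lower, moved by less than 1.5 times under every alternative run. The fit with no replicate block gave 226 higher and 371 lower genes, shared 593 calls with the fit pairing the limbs, and changed no call of the 182 named genes. The count of higher genes lay between 167 (glmTreat against 2-fold) and 241 (TMM), and that of lower genes between 258 (median of ratios) and 380 (limma, pseudocount 0.1). Each library was also left out in turn, with the lone library assumed to vary like the others. These fits used all remaining libraries, Y440X included, as group means without the limb block. The library removed is therefore not the only change from the main fit. The median log2 fold change over all genes then lay between -0.87 and -0.69.

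Calls of named genes were lost under other alternatives. The median of ratios shared 481 calls, with 22 of the 182 named calls lost and 2 gained, among those lost Ebf3, Epcam, Meis1, Grhl3, Smpx, Hspa1a, Hspa1b and Adm. DESeq2 with the same library sizes shared 540 and lost 7, glmTreat lost 25, limma with a pseudocount of 1 lost 3 and TMM lost 2. Each left-out library lost 4 to 7.

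The reversals were all in named genes with no call. Scaling by the median of ratios, which moved the median of all genes by 0.61, gave 0.44 for AF357359, 0.28 for Alpl, 0.42 for Cd83, 0.38 for Ddx3y, 0.19 for Ebf1, 0.21 for Fabp7, 0.45 for Lef1, 0.50 for Rn45s, 0.22 for Spp1, 0.16 for Tlr3 and 0.32 for Uty. TMM, which moved it by 0.22, gave 0.08 for AF357359, 0.06 for Cd83, 0.02 for Ddx3y, 0.09 for Lef1 and 0.14 for Rn45s. Without 1 library, values ran from -0.35 to 0.06 for AF357359, from -0.71 to 0.03 for Alpl, from -0.40 to 0.08 for Cd83, from -0.86 to 0.04 for Fabp7, from -0.42 to 0.14 for Lef1, from -0.08 to 0.12 for Mpnd and from -0.29 to 0.09 for Rn45s. Ebf1 passed after the filter of 10 counts in 2 libraries. With 1 pool a limb, p-values of the block fit measure how the fraction difference varied between limbs.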

Other observations

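Some short lists are given as values. Eno1b, a copy of a glycolytic enzyme gene whose reads can be split with Eno1, was higher in GFP-positive cells (log2 fold change 1.39), and Adm, a peptide induced by low oxygen, was lower (-1.44), but not under the median of ratios (-0.86). Of 6 histone genes, grouped after their values had been seen, 3 were higher and 1 was lower in GFP-positive cells, with 1 to 3 higher when each library was left out. Cdkn2b, a cell cycle inhibitor, was called higher (1.37), but not without GFP-positive hindlimb (1.07) or GFP-negative hindlimb (1.14), nor by DESeq2 with the same library sizes (1.39), under the median of ratios (1.98) or by glmTreat.

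Other genes outside the lists also differed between the fractions, by more or less. Susd5, a sushi domain protein, was at 485 and 379 CPM in GFP-positive cells, against 3 and 1.88 CPM in GFP-negative cells (log2 fold change 7.49 ± 0.22). Snai1, a zinc finger repressor, differed less, at 334 and 334 CPM in GFP-positive cells, against 97.8 and 122 CPM in GFP-negative cells (1.61). Apoe, a lipid carrier abundant in macrophages, was at 13.2 and 17 CPM in GFP-positive cells, against 195 and 161 CPM in GFP-negative cells (-3.56 ± 0.19).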
